A study of Homo sapiens with 4 samples.

Results

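Genes named ZNF with a number make up a large part of the human zinc finger transcription factors, and those expressed in DU145 cells were followed through knockdown of TAZ. Members were chosen by their symbol (ZNF, a number and at most 1 further letter) and by a mean normalized count of at least 200 over the 4 libraries. That mean takes in both groups, so the members' level is a description and no result. That rule gave 161 of 489 such symbols and of 19871 rows in all. DU145 is an established human prostate cancer line of epithelial cells, kept here with 10% serum. Control cells carried pLKO, a lentiviral hairpin vector, and knockdown cells carried 1 of 2 independent hairpins against TAZ. Each group had 2 libraries, and the labels do not say which hairpin is in which library. The label "TAZ" here stands for the Hippo pathway coactivator encoded by WWTR1, whose normalized counts of 2508 and 3626 in control stood against 839 and 719 in knockdown (limma adjusted p = 0.0086).

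Most ZNF proteins read DNA through C2H2 fingers, short loops in which a pair of cysteines and a pair of histidines hold a zinc ion, joined in tandem by a conserved linker. Many also carry a KRAB box, which binds the corepressor TRIM28, and TRIM28 in turn brings the histone methyltransferase SETDB1 and HP1 proteins to chromatin. KRAB factors are best known for silencing transposable elements and imprinted genes, and many of their genes lie in clusters on chromosome 19 that arose by tandem duplication. Some genes with a ZNF symbol encode other things, such as RNA-binding, ribosome-associated or LIM domain proteins.

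The members fitted their family name with few exceptions. Coding transcripts of GENCODE release 29 (GRCh38) were found for 159 of 161 members. The unmatched symbols were ZNF252P and ZNF271P, which name pseudogenes. At least 1 C2H2 motif was found in the translated sequence of 155 members, with a median of 9 motifs and at most 34. No motif was found in ZNF185, ZNF330, ZNF503 or ZNF839, and ZNF185 is known as a LIM domain protein that binds actin. A KRAB box was found in 70 members and a SCAN box, a dimerisation domain, in 10, of which 5 carried both. Chromosome 19 held 40 members, 27 of them with a KRAB box. Because libraries did not keep strand, reads from the 58 members with an exon over an exon of a gene on the other strand cannot be separated from that gene's reads. Near copies such as ZNF780A and ZNF780B can share reads, and no source says how those were assigned, so single values of such pairs are uncertain.

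Recovered depth was 11687727 to 14814918 reads per library, and members took 0.685 and 0.731% of the control reads and 0.718 and 0.759% of the knockdown reads. The lower knockdown share lay between the controls, so the groups overlapped in this total. No member had fewer than 107 recovered reads in a library. All 5 epithelial markers listed were present, from EPCAM at 520.4 to 1061 normalized counts to KRT8 at 8485 to 24944, and in knockdown KRT8 and KRT18 lay under both control values while EPCAM and CDH1 lay over them. PTPRC, a leukocyte marker, was at 0 to 0.886 and PECAM1, an endothelial marker, at 0 to 1.86. Of 4 fibroblast markers 2 were tested, COL1A1 at 85.3 and 36.8 in control against 135 and 147 in knockdown, and COL1A2 at 5.21 to 28.3. The part of these shifts in the members' values was not tested. Fewer cells of a kind and less RNA per cell cannot be told apart in bulk libraries. Whether the libraries within a group are separate cultures is not stated, and the spread behind each p-value may therefore be technical.

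No member changed past the test. The limma adjusted p of members ran from 0.399 to 0.997, against a threshold of 0.05, and edgeR's quasi-likelihood test, limma-voom and DESeq2 on the recovered reads each called 0 members as well. Among the adjusted p-values in the authors' deposited table, none of the 161 members' values was under 0.05. Over all 17737 genes tested limma called 0.0113%, and 0.0234% of the 8538 with a mean of at least 200. Of the genes each tool adjusted, edgeR and limma-voom called 0.0142% each, DESeq2 0.542%, and 0.537% were called in the authors' deposited table. At an unadjusted limma p under 0.05 there were 13 members, 12 higher and 1 lower in knockdown, or 8.07% of members. The same share was 7.05% over all genes tested and 8.07% over genes with a mean of at least 200, so members reached it as often as genes of that level did. By direction, 4.33% of all genes were higher and 2.72% lower, and 5.01 and 3.06% of genes with a mean of at least 200. DESeq2 gave 10 members an unadjusted p under 0.05 (4.66% of all genes and 6.75% of those with a mean of at least 200).

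Both knockdown libraries lay above both controls for 36 members and below both for 25. As shares these were 22.4 and 15.5% of members, beside 19.1 and 20.8% of genes with a mean of at least 200 and 18.4 and 19.0% of all genes tested. The log2 difference, which is the difference of group means of log2(normalized count + 1), ran from -0.51 to 0.78 over the members with a median of 0.07. The median was -0.02 over genes with a mean of at least 200 and -0.01 over all genes tested. A higher mean in knockdown was found in 96 members and a lower one in 65, and 59.6% stands beside 49.0% of all genes and 47.2% of those with a mean of at least 200.

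Set against each control separately, the members gave different pictures. Against control 1 the median log2 difference was 0.11 in knockdown 1 and 0.17 in knockdown 2. Against control 2 it was -0.05 in knockdown 1 and -0.0012 in knockdown 2. The controls themselves differed by a median of 0.20 (control 2 minus control 1), a larger median than in any pair of a knockdown and a control library. Over genes with a mean of at least 200 the controls differed by 0.06. Without control 1 the members' median turned to -0.02, and without control 2 it was 0.11. The median of the knockdown libraries differed by 0.04 (knockdown 2 minus knockdown 1).

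**Figure D1:**
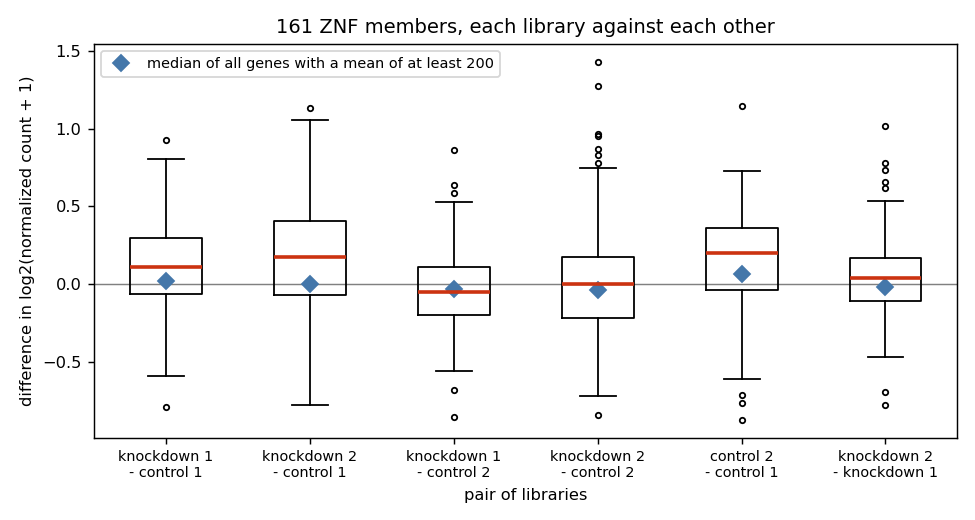
Differences in log2(normalized count + 1) of the 161 members for 6 pairs of libraries: boxes span the quartiles with the median in red, whiskers reach 1.5 box lengths, circles are members beyond them, and diamonds are medians of all genes with a mean of at least 200. The members' medians sit above 0 against control 1 (0.11 and 0.17), near 0 against control 2, and highest between the controls (0.20).

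ZNF185, the actin-binding LIM domain protein known for its loss in prostate cancer, had the largest difference and the smallest p. Its normalized counts of 618 and 805 in control stood against 1079 and 1353 in knockdown. Both knockdown libraries were thus above both controls, and the controls were also apart. The means were 711 ± 132 and 1216 ± 193 (SD, n = 2 each), 1.71-fold. The log2 difference was 0.78 ± 0.19 (SE; limma adjusted p = 0.399). In the authors' deposited table its adjusted p was 0.0958, also short of 0.05. The gene has no C2H2 motif, so the member furthest from its controls is a zinc finger protein of another kind.

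The start of ZNF185 is shown because TAZ works through TEAD factors, often beside AP-1. The stretch covers 100 bases before to 30 after the RefSeq start (GRCh38.p14, plus strand, chrX:152914332-152914461). Capitals mark a match to TGANTCA, a looser pattern than the AP-1 site TGA(C/G)TCA because it allows any base at N. That base is A here, so the stretch matches the loose pattern only.
ZNF185: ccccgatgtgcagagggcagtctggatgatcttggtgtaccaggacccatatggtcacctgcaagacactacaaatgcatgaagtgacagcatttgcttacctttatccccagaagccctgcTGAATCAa
Windows from 250 bases before to 50 after the start were found in RefSeq for 140 members. The TEAD motif GGAATG, searched on both strands, was not in the ZNF185 window. It was in 17 of the 140 member windows (12.1%), as in 11.7% of protein-coding windows. TGANTCA was in 8 member windows (5.71%, against 5.75% of protein-coding windows). The motifs do not overlap, and a match is a description of letters, not of binding.

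Among the other members with the knockdown libraries above both controls, the largest differences were those of ZNF704, ZNF260, ZNF780B, ZNF264, ZNF518A, ZNF641 and ZNF445. The control means of ZNF704 (162.6) and ZNF780B (189.6) were under the count threshold for members. These genes are members only through their knockdown values, so their place in this list depends on that choice. ZNF260, a protein of 13 C2H2 motifs, had 224 and 235 normalized counts in control against 324 and 391 in knockdown. Its controls lay close together, and both knockdown libraries were clear of them (log2 difference 0.63 ± 0.20, SE; limma adjusted p = 0.598). ZNF264, a KRAB factor, had 240.3 and 230.05 in the controls and 309.9 and 396 in knockdown. ZNF780B, a KRAB factor of 21 motifs, had 203 and 176 in the controls and 239.97 and 345 in knockdown. In each of these 3 genes knockdown 2 was the higher knockdown library. ZNF704 had 202 and 123 in the controls and 225 and 299 in knockdown, so its controls were further apart than knockdown 1 was from control 1. ZNF641, a KRAB factor, had 208 and 194 in the controls and 281 and 289 in knockdown, with a small gap within each group. Over these 7 genes the limma adjusted p ran from 0.598 to 0.690.

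On the lower side stood ZNF593, ZNF589, ZNF692, ZNF511, ZNF581, ZNF672, ZNF207 and ZNF768. The knockdown means of ZNF589 (185.1) and ZNF581 (184.8) were under the count threshold for members. They are members only through their control values, so their place here depends on that choice too. ZNF593, whose yeast relative acts in export of the large ribosomal subunit, had 338 and 538 normalized counts in the controls and 298 and 299 in knockdown. The knockdown libraries were nearly equal while the controls lay far apart. ZNF589, a KRAB factor, had 230.1 and 301 in the controls and 188 and 182 in knockdown (log2 difference -0.51 ± 0.23, SE; limma adjusted p = 0.700), and it was the 1 lower member with an unadjusted p under 0.05. ZNF672 had 723 and 843 in the controls and 645 and 636 in knockdown, and ZNF768 had 913 and 948 against 831 and 718. ZNF207 binds the checkpoint protein BUB3 and acts at the spindle and kinetochore. It had 3804 and 4266 in the controls and 3462 and 3180 in knockdown (log2 difference -0.28 ± 0.16, SE; limma adjusted p = 0.749). The log2 difference of these 8 genes ran from -0.51 to -0.27, and none passed limma.

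**Figure D2:**
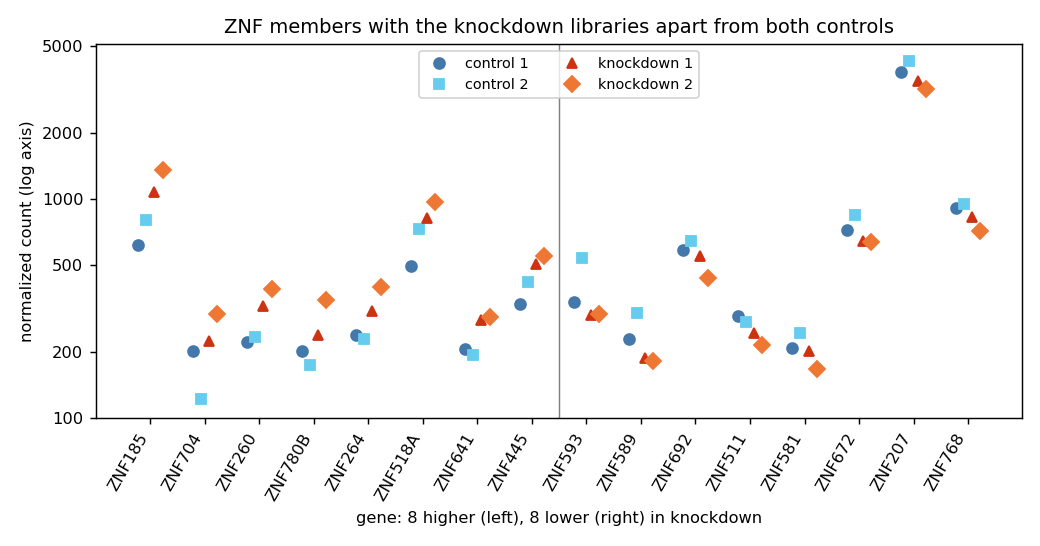
Normalized counts (log axis) of the 8 largest higher and 8 largest lower members among those whose knockdown libraries lay on one side of both controls; each symbol is 1 library, so each group has 2 points. ZNF185 stands highest among the left genes at 1079 and 1353 in knockdown, and none of the 16 genes passed limma.

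By level, the members ranged from 201 to 3678 normalized counts with a median of 423. The 8 highest means were those of ZNF207, ZNF24, ZNF664, ZNF146, ZNF638, ZNF106, ZNF609 and ZNF217. Counts grow with transcript length, and per kilobase of the longest coding transcript the order opened with ZNF146 at 576, ZNF593 at 527, ZNF622 at 463 and ZNF664 at 435. ZNF146 is a protein made almost wholly of fingers, and ZNF622 acts in maturation of the large ribosomal subunit. ZNF24, a SCAN factor, had 1868 and 2513 normalized counts in the controls and 2574 and 2609 in knockdown. ZNF146 had 1978 and 2627 in the controls against 2239 and 1863, and ZNF217, an oncogene often amplified in breast cancer, had 1371 and 1659 against 1579 and 1250. Groups overlapped in ZNF146 and ZNF217, while in ZNF24 both knockdown libraries were above both controls by a margin far smaller than the gap between the controls. ZNF638, an RNA- and DNA-binding protein that silences retroviral DNA, stayed within 1942 to 2145 in all 4 libraries. The limma adjusted p of the 8 genes ran from 0.749 to 0.990.

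The members nearest the threshold show what it leaves in and out. Just inside it were ZNF669, ZNF26, ZNF576, ZNF581 and ZNF883 with means of 201 to 208, and just outside were ZNF385A, ZNF414, ZNF394, ZNF280B and ZNF468 with means of 192 to 195. Of the members, 5 had a control mean under 200 and 3 a knockdown mean under 200, so these passed through the group in which they were higher. ZNF704 and ZNF780B were among the former, and ZNF581 and ZNF589 among the latter. The median log2 difference of the 153 members with both group means of at least 200 was 0.06. At a threshold of 100 instead, 76 of 271 ZNF symbols lay above both controls and 36 below both, beside 19.5 and 19.9% of all genes at that level. At 500 there were 11 and 12 of 64, beside 18.9 and 22.2%. The 323 tested ZNF symbols under the threshold had a larger median of 0.24, and 125 of them lay above both controls in both knockdown libraries (38.7%, beside 17.7% of all tested genes with a mean under 200). That median was 0.10 and 0.12 for knockdown 1 against the controls and 0.35 and 0.37 for knockdown 2, and 0 of them passed limma (lowest adjusted p 0.533). Without knockdown 2 the median of 0.24 was 0.11. With a trend in transcript length and GC content removed it was 0.18, with 223 of 308 symbols higher, beside a median of 0.04 over all tested genes with a mean under 200. The difference between ZNF symbols above and below the threshold was not tested.

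KRAB factors had a higher median than the rest of the members, 0.13 against 0.05. Of 70, 45 had a higher mean in knockdown, with 20 above both controls and 8 below both (28.6 and 11.4%). Of the 89 coding members with no KRAB box, 50 had a higher mean, with 16 above and 17 below both controls (18.0 and 19.1%). Over genes with a mean of at least 200 these shares were 19.1 and 20.8%. In the KRAB group the median was 0.15 and 0.25 against control 1 but -0.04 and 0.06 against control 2, and the controls differed by 0.21. The 27 KRAB members on chromosome 19 had a median of 0.20, with 22 higher and 5 lower, and the 43 elsewhere had 0.05. Without control 1 these medians were 0.07 and 0.00031, and after the trend in transcript length and GC content was taken out 0.06 (17 of 27 higher) and -0.02. The difference between these groups was not tested.

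Among KRAB factors with studied targets, 5 of 10 listed were members, with a median of 0.33 that was 0.07 without control 1 and -0.01 without the length and GC trend. ZNF445, which keeps genomic imprints, had 333 and 420 normalized counts in the controls and 506 and 551 in knockdown (log2 difference 0.50 ± 0.19, SE; limma adjusted p = 0.685). ZNF274, which brings SETDB1 to the 3′ ends of other ZNF genes, had 287 and 273 in the controls and 379 and 396 in knockdown (log2 difference 0.47 ± 0.19, SE; limma adjusted p = 0.687). The libraries of each group lay close together in ZNF274 and the groups were apart. ZNF268 had 334 and 478.5 against 499 and 510, with a wide gap between the controls. ZNF202, which represses genes of lipid metabolism, had 337 and 483 against 400.2 and 319, so its groups overlapped.

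Partners of the KRAB box had no common direction. The 19 symbols listed held FAM208A and TASOR, which name 1 gene, so they stood for 18 genes and all were tested. These had 9 higher and 9 lower means, a median log2 difference of -0.0054 and 0 past limma. DESeq2 on recovered reads and the authors' deposited table each called 1. TRIM28 had 6395 and 7588 normalized counts in the controls and 6067 and 4304 in knockdown (log2 difference -0.45 ± 0.20, SE; limma adjusted p = 0.705). CBX5, which encodes the alpha form of HP1, had 1514 and 918 in the controls and 2163 and 2534 in knockdown (log2 difference 0.99 ± 0.22, SE; limma adjusted p = 0.355), and it was the gene DESeq2 called on recovered reads (adjusted p = 0.029). SETDB1 had 1399.8 and 1272 against 1319 and 1217. Knockdown and control libraries were thus apart in opposite directions for TRIM28 and CBX5, and overlapped for SETDB1. With a trend in transcript length and GC content removed, the log2 differences were smaller, -0.28 in TRIM28 and 0.68 in CBX5.

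Members with roles in RNA, ribosomes, the spindle or the cytoplasm numbered 12 of 15 listed, 7 of them higher and 5 lower, with a median of 0.03 that was -0.11 without control 1 and 0.09 without control 2. Without the length and GC trend the median turned to -0.095, with 4 of 12 higher. Besides ZNF185, ZNF593 and ZNF207, these members included ZNF598, the ubiquitin ligase that marks collided ribosomes. It had 1207 and 1567 normalized counts in the controls and 1232 and 1055 in knockdown (limma adjusted p = 0.788), with knockdown 1 above control 1. Members tied to chromatin complexes or SUMO numbered 15 of 19 listed, 11 higher and 4 lower, with a median of 0.15. This was 0.05 without control 1, 0.28 without control 2 and 0.06 without the length and GC trend. ZNF518A had 494 and 732 in the controls and 818 and 967 in knockdown, and its paralogue ZNF518B had 228 and 281 against 339 and 368. In both genes the groups were apart, with limma adjusted p of 0.661 and 0.692. ZNF451, a SUMO ligase, had 564 and 766 against 863 and 859.9. ZNF827, which recruits the NuRD complex to telomeres, had 252 and 182 in the controls and 242 and 491 in knockdown, so the knockdown libraries disagreed. Broad promoter binders and activators numbered 11 of 12 listed, 4 higher and 7 lower, with a median of -0.07 that turned to 0.07 without control 2. Without the length and GC trend it was -0.03. ZNF410, known for activating CHD4, was on this list and on that of chromatin complexes and SUMO, and is counted in both. ZNF410 had 1054 and 1254 against 975 and 1019, and CHD4 had 5082 and 4556 against 4436 and 4377. ZNF395 had 1363 and 1039 against 786 and 1206, and ZNF263, with KRAB and SCAN boxes, 296 and 366 against 356 and 396. None of these genes passed limma.

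Differences followed the base composition of the transcripts, and transcript length changed along with it. The members' median length was 5701 bases under 45% GC, 4392.5 from 45 to 55% and 3347 at 55% or more. The parts of GC content and length were not tested separately. Of 72 members whose longest coding transcript was under 45% GC, 54 had a higher mean in knockdown, 23 were above both controls and 3 below both (31.9 and 4.17%, beside 26.7 and 10.9% of all genes of that level and GC range), with a median log2 difference of 0.16. Of 44 members between 45 and 55% GC, 31 had a higher mean (70.5%, beside 46.8% of genes of that level and range) and the median was 0.13. In this range 12 were above both controls and 8 below both (27.3 and 18.2%, beside 19.7 and 20.6% of those genes). Of 43 members with at least 55% GC, 10 had a higher mean, 1 was above both controls and 14 below both (2.33 and 32.6%, beside 10.1 and 31.7% of genes of that level and range), with a median of -0.16. Without control 1 the medians of the 3 GC ranges were 0.02, -0.0026 and -0.25, and without control 2 they were 0.25, 0.26 and -0.08. KRAB members made up 36 of the first, 23 of the second and 11 of the third group. Within each GC range the medians with and without a KRAB box were 0.20 and 0.13 under 45%, 0.15 and 0.13 from 45 to 55%, and -0.17 and -0.16 above. The bounds of 45 and 55% were chosen after the values were seen.

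The same order was present in all genes of the same level. Medians over genes with a mean of at least 200 were 0.07 under 45% GC, -0.01 from 45 to 55% and -0.11 above. Their median transcript lengths in these ranges were 4585.5, 3550 and 2779 bases. Members had a median GC content of 46.2% and a median transcript length of 4492 bases, against 48.9% and 3640 for those genes. When a smooth trend with length and GC content was removed from each library, the members' median was -0.0053, with 79 of 159 higher. KRAB members then had a median of 0.0066 and the other members -0.01. All genes of this level had -0.02 after the same removal, with 3723 of 8123 higher. By GC range they had -0.06 under 45%, -0.03 from 45 to 55% and 0.03 above, so their order was turned around. Whether members still differed from these genes was not tested. With the trend removed 21 members lay above both controls and 26 below both, beside 16.1 and 19.2% of genes with a mean of at least 200. ZNF185 kept a log2 difference of 0.75, ZNF274 of 0.54 and ZNF589 of -0.50. ZNF445, at 47.1% GC and 18299 bases, went to 0.12, and ZNF207, at 36.9% GC and 13781 bases, to -0.64. Smaller values also came out for ZNF704 (0.35), ZNF780B (0.35), ZNF264 (0.25), ZNF518A (0.34), ZNF641 (0.32) and ZNF593 (-0.29). The other named lower genes went to -0.14 (ZNF692), -0.14 (ZNF511), -0.08 (ZNF581), -0.13 (ZNF672) and -0.07 (ZNF768). What lies behind the trend was not tested.

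**Figure D3:**
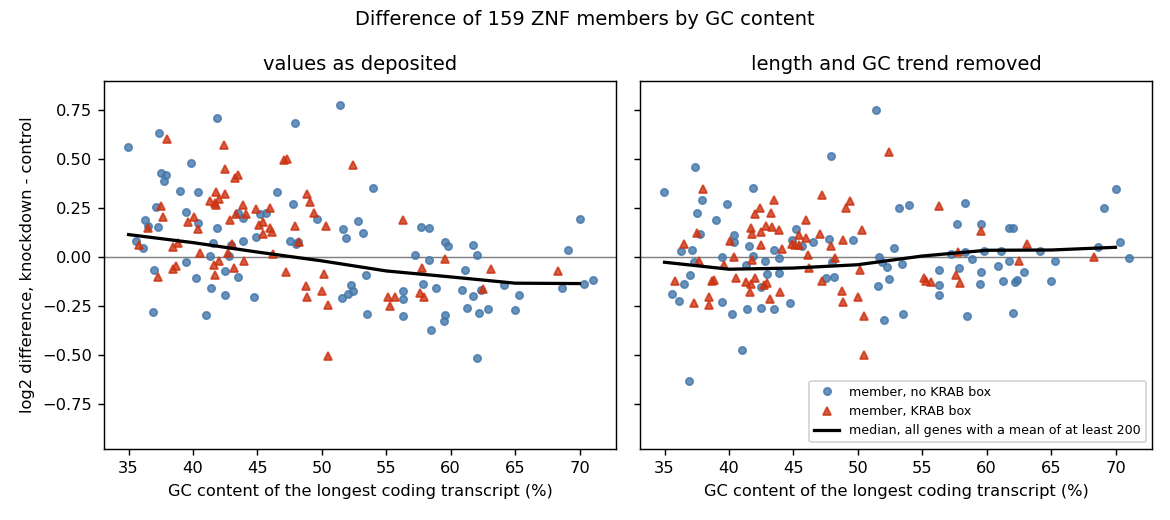
Log2 difference (knockdown minus control) of 159 members by GC content of their longest coding transcript, as deposited (left) and with a length and GC trend removed from each library (right); circles are members with no KRAB box, triangles those with one, and the line is the median of all genes with a mean of at least 200 in steps of 5% GC. On the left the members pass from a median of 0.16 under 45% GC to -0.16 at 55% or more, and on the right they centre near 0.

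In the order of protein-coding genes of the RefSeq assembly GRCh38.p14, 23 pairs of members were direct neighbours, and 17 pairs had log2 differences of the same sign. Of all members 59.6% had a higher mean in knockdown, so pairs of unrelated members also often share a sign. The same count over neighbours among all genes was not made, so the 17 pairs are a description and no result about neighbours. The 3 blocks described next were chosen after their values were seen. On chromosome 12, ZNF605, ZNF26, ZNF84 and ZNF140 had log2 differences of 0.32, 0.28, 0.18 and 0.18, at 39.6 to 45.4% GC. On chromosome 7, the run ZNF398, ZNF282, ZNF212, ZNF783, ZNF777 and ZNF746 had 0.16, -0.06, -0.21, -0.20, -0.17 and -0.24, and the 2 highest in GC were ZNF282 and ZNF777 at 63.2 and 62.5%. The chromosome 12 genes, low in GC, had positive differences, and 5 of the 6 chromosome 7 genes had negative ones. With the length and GC trend removed the chromosome 12 genes had 0.06, -0.13, -0.04 and 0.11, with no common sign, and the chromosome 7 genes 0.06, 0.07, -0.11, -0.13, -0.02 and -0.30. None of these 10 genes passed limma (adjusted p = 0.774 to 0.968).

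On chromosome 19, ZNF121, ZNF561 and ZNF562 were consecutive. ZNF561, a KRAB factor, had 375 and 392 normalized counts in the controls and 533 and 494 in knockdown (log2 difference 0.42 ± 0.18, SE; limma adjusted p = 0.692). ZNF562, also a KRAB factor, had 631 and 669 in the controls and 855 and 924 in knockdown (log2 difference 0.45 ± 0.17, SE; limma adjusted p = 0.656). In both genes the controls lay close together and both knockdown libraries were above them. ZNF121 had 262 and 361 against 402 and 372. ZNF561-AS1, an RNA gene of the other strand that overlaps exons of ZNF561 and ZNF562, had 32.2 to 53.8 normalized counts over the 4 libraries, far under either gene. Strand was not kept and the read counter is not given, so this level cannot show how many of its reads were counted to either gene. With the length and GC trend removed, the log2 differences were 0.29 in ZNF561 and 0.13 in ZNF562.

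The starts of ZNF561 and ZNF562 are shown because the differences of these neighbours were of similar size in the deposited values (0.42 and 0.45). With the length and GC trend removed they were less alike (0.29 and 0.13). Each stretch runs from 100 bases before to 30 after the RefSeq start (GRCh38.p14, minus strand), at chr19:9621203-9621332 for ZNF561 and chr19:9675071-9675200 for ZNF562. Capitals mark TGACGTCA, the palindrome read by CREB and ATF factors, and GCCATCTT, which holds the core read by YY1.
ZNF561: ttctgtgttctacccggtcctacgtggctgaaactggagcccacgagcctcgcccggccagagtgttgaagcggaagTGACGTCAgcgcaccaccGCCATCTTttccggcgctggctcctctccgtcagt
ZNF562: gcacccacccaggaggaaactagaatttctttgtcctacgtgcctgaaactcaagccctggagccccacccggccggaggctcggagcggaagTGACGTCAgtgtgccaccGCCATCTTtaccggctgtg
Over the 300-base windows, 228 of 274 aligned bases were identical (83.2%), and the longest run in common was 21 bases. TGACGTCA was in 9 of 140 member windows (6.43%) and in 2.59% of protein-coding windows, and GCCATCTT in 8 (5.71%) and in 3.91%. The 9 and the 8 include ZNF561 and ZNF562, from whose starts the motifs were taken, so the members' shares were raised by that choice. Both motifs were picked after the sequences were seen and searched on both strands, they do not overlap each other, and their presence says nothing of which factor was bound here.

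**Figure D4:**
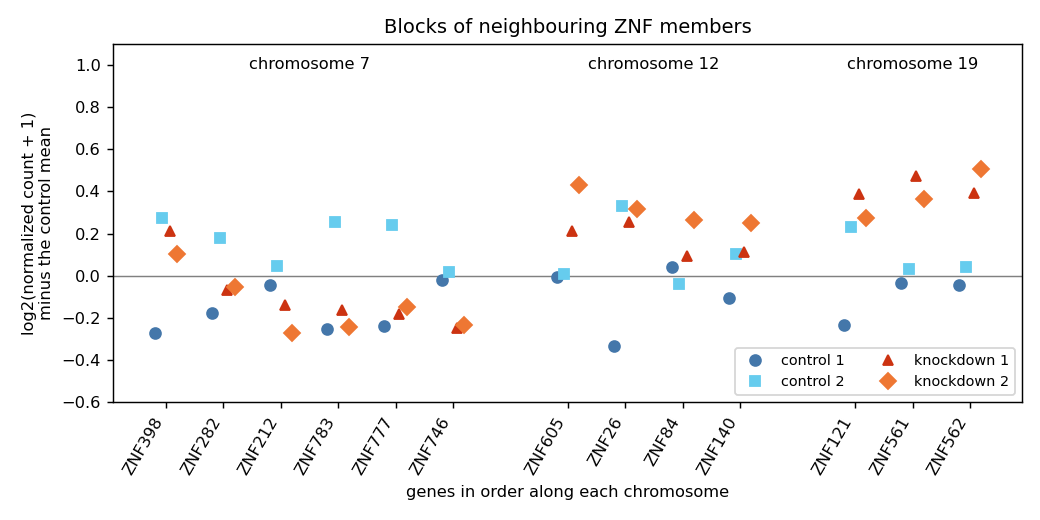
Log2(normalized count + 1) minus the mean of the controls for 13 members in 3 blocks of neighbours, with 1 symbol per library and genes in chromosome order. ZNF561 and ZNF562 have both knockdown libraries above both controls, the chromosome 12 genes sit mostly above 0 in knockdown, and the chromosome 7 genes mostly below it.

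Some members differed most within a group. Between the knockdown libraries the largest gaps were in ZNF827, ZNF618, ZNF652 and ZNF714. ZNF618 had 392 and 674 normalized counts in knockdown and 591 and 347 in the controls, ZNF652 had 713 and 415 in knockdown and 662 and 672 in the controls, and ZNF714 had 305 and 508 in knockdown and 307 and 277 in the controls. In ZNF652 and ZNF714 knockdown 1 lay near the controls and knockdown 2 stood alone. Between the controls the largest gaps were in ZNF800, ZNF362, ZNF618 and ZNF408. ZNF800 had 151 in control 1 and 336 in control 2, ZNF362 had 289 and 158, and ZNF408 had 224 and 370.4. The knockdown libraries of ZNF362 (237 and 237) and ZNF408 (251 and 250.1) lay between their controls, so the gap between controls held both knockdown values. Which hairpin each knockdown library carries is not stated, so a difference between hairpins and one between libraries cannot be told apart.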

How the data were processed

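The authors' deposited table gives, per gene symbol, a signal for each library (read counts divided by a size factor per library) and the output of DESeq2. Its columns hold, per the file headers, a mean signal, a log2 fold change with its error, a score (Wald statistic), a p-value and an adjusted p-value. The submitters' processing notes list STAR and DESeq2 as tools, hg19 as build and no versions. The read counter and the annotation are not given in the sources. Per the labels' protocols, 0.2 µg of RNA was used with poly-T capture and a kit that does not mark strand.

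All deposited values were whole multiples of the worth of 1 read (100% within 0.001), so reads were recovered. Left out were 26 rows with symbols turned into dates (0.153 to 0.191% of reads). limma 3.58.1 (R 4.3.3, eBayes with trend) was run on log2(value + 1) of 17737 genes with a value of at least 1 in at least 2 libraries, with Benjamini-Hochberg adjustment over all of them. edgeR 4.0.16, DESeq2 1.42.0 and limma-voom on recovered reads were alternatives. The tools were also run on simulated data with the same spread for every gene and larger changes than those of the members. That run cannot show how well changes of the members' size are found. On recovered reads DESeq2 called 68 genes and edgeR and limma-voom 2 each.

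C2H2 motifs were matched by pattern (C, 2 to 4 residues, C, 12 residues, H, 3 to 5 residues, H) in translated GENCODE 29 transcripts. KRAB and SCAN boxes were found with profiles built from 116 and 42 seed stretches (pyhmmer, E-value of at most 0.001). Length and GC content came from the longest coding transcript (14580 of 17737 genes), and splines of 4 degrees of freedom each were removed per library in an alternative. The build of the reference differs from hg19, so it served for names, features and neighbour order, and printed sequences and coordinates are RefSeq's.

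The members, lists and tests were chosen with earlier results of these data known. Named genes were the 8 highest means, the 8 largest differences each way with the groups apart, up to 4 per role list by smallest p, 5 on each side of the threshold, and the 4 largest gaps within each group; others are said to be chosen after their values were seen. Lists are described by counts and medians with no list test.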

Additional observations from a re-analysis of the deposited data

How the results depend on the processing

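No member was called under any alternative but a crossed pairing of the libraries. Each group had 2 libraries, and the effect of depth on the calls was not tested. Over all genes limma called 2. The count was 68 by DESeq2 on recovered reads, 7 with the replicate block and 0 without any 1 library, and 2 under each other alternative run apart from the crossed pairing. Whether the replicate numbers pair the libraries is not stated, and the correlation of their deviations was -0.04 across all genes tested and -0.10 across the 8538 with a mean of at least 200, so the block result is given here only. A crossed pairing (knockdown 2 with control 1), chosen after seeing the data, called 241 genes, of which 1 was a member, ZNF185. The members' median log2 difference of 0.07 was -0.02 to 0.11 without each library in turn, -0.0053 after removal of the length and GC trend and 0.03 to 0.10 at thresholds of 500 and 100. It turned sign without control 1 (-0.02) and after that removal. TMM scaling raised the median of all genes by 0.02. The count above both controls was 36 of 161, 41 with TMM scaling, 76 of 271 at a threshold of 100, 11 of 64 at 500, and 21 of 159 with the length and GC trend removed, an alternative chosen after seeing the data. The count below both was 25, 12 at a threshold of 500 and 26 with the trend removed.

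Of 616 comparisons of 44 named genes, 593 kept their sign and side of the threshold. WWTR1 lost its call without any 1 library (log2 difference -2.22 to -1.69). The sign turned with the length and GC trend removed in ZNF106 (-0.079), ZNF26 (-0.13), ZNF268 (-0.014) and ZNF664 (-0.027). With single libraries left out the range crossed 0 in ZNF146 (-0.36 to 0.046), ZNF202 (-0.43 to 0.085), ZNF217 (-0.27 to 0.066), ZNF26 (-0.048 to 0.62), ZNF362 (-0.29 to 0.59), ZNF395 (-0.60 to 0.019), ZNF408 (-0.56 to 0.16), ZNF609 (-0.033 to 0.32), ZNF618 (-0.21 to 0.57), ZNF638 (-0.095 to 0.048), ZNF652 (-0.68 to 0.10), ZNF664 (-0.0039 to 0.14) and ZNF800 (-0.15 to 0.99). The cause was not tested.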
